A study of Mus musculus with 47 samples.

Results

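The comparison described here set 1 library of cells labelled Raw264.7 with the D/E-A rescue of a Zmynd8 KO (D/E-A) against 1 library of Zmynd8 KO cells without a rescue (KO), and so asked how cells with the mutant protein differed from cells labelled as the knockout alone. It used 2 of the 47 samples of the series and did not use the WT Zmynd8 rescue as a control. Genes were joined on name and position in the deposited tables. All 12771 genes of the D/E-A table were found among the 23772 genes of the KO table, and 12770 remained once Zmynd8, the edited gene, was left out. Of these, 11942 had a mean of at least 20 reads in the 2 libraries and were compared.

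Raw264.7 is a mouse macrophage line, and the labels give it as C57BL/6 with bone marrow as its source. In both lines, according to the Methods, Zmynd8 was knocked out (KO) with a lentiviral CRISPR vector, LentiCrispr-V2, and 1 of them then received full-length ZMYND8 in which the acidic residues of the intrinsically disordered region, aspartic acid (D) and glutamic acid (E), were changed to alanine (A). Neither the labels nor the Methods say whether a line was 1 clone. A vector rescue appears in other assays of the study, but the KO label here names no vector, and no treatment either. The study describes LPS treatment of the rescued cells, so in this comparison genotype and treatment cannot be told apart. Each side was 1 library, so no difference has a replicate check and no p-value is given. The remaining library of this set, Zmynd8 KO + WT Zmynd8, and the other 3 of the 6 Raw264.7 libraries (p65 KO cells with WT p65, with the K122R mutant or without rescue, all with LPS) are given beside the values for orientation.

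ZMYND8 is a chromatin reader that binds acetylated and methylated histone tails and works with histone demethylases and deacetylases of the NuRD complex. Clusters of acidic and basic residues in a disordered region can hold proteins together in condensates. According to the study, the D/E-A mutant was not dispersed: it still formed nuclear puncta, but these had lost their liquidity. The authors describe them as solid aggregates and report that the mutant failed to bind p65. In macrophages, lipopolysaccharide (LPS), a component of the bacterial wall, activates NF-κB and interferon signalling through Toll-like receptor 4, and genes such as Nos2, Il1b and Cxcl10 respond.

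The guide that the study lists for Zmynd8 is shown as the listed means of the knockout, with the p65 guide of the same list as a control for the search. Both were read from the listed oligos after the cloning overhang and an added base were taken off, and only exact matches were sought.
sgZMYND8: gtgatgtgtcctgcggcgag
sgP65: cgattccgctataaatgcga
The p65 guide had 1 match in the mouse genome (GRCm38.p6), on the forward strand at chr19:5638613-5638632 inside Rela, the gene of p65, with GGG as the next 3 bases. No match on either strand was found for the listed Zmynd8 guide, nor for its 16 bases nearest the PAM, and the longest run it shared with the Zmynd8 gene was 10 bases. This concerns the listed oligo only. The study examined its Zmynd8 KO Raw264.7 cells in other assays, among them western blots of nuclear fractions, which are not part of this comparison. In the deposited values Zmynd8 stood at 497 reads in D/E-A, which is 27.7 rpm (reads-per-million), and at 485 reads or 26.4 rpm in WT Zmynd8. The value listed for Zmynd8 in KO was 116, or 121 times the value of 1 read but not a whole number of reads, unlike every other gene of that library. Reads of a rescue construct and of the edited gene cannot be told apart in these tables.

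The joined genes held 17929594 reads in D/E-A, 20986967 in KO and 18343007 in WT Zmynd8. Since every gene of the D/E-A table had at least 21 reads in WT Zmynd8, genes below that level were not compared, and 560 genes with at least 20 reads in KO lay outside the join. Ribosomal 18S RNA took 6.50% of the D/E-A reads, 11.2% of KO and 13.8% of WT Zmynd8. The macrophage markers were present, with 11 of 12 listed in D/E-A and all 12 in KO, but so were all 15 neutrophil granule markers, which summed to 7179 rpm in D/E-A, 10888 rpm in KO and 15112 rpm in WT Zmynd8, against 18.9 to 22.2 rpm in the p65 KO set, where 3 or 4 of the 15 were over 3 reads. Xist had 8062, 7109 and 8467 reads in D/E-A, KO and WT Zmynd8, and Ddx3y, Eif2s3y, Kdm5d and Uty had at most 3 reads or were not listed there. In the p65 KO set 4 of these 5 genes were over 3 reads. The 6 B cell markers summed to 208, 150 and 207 rpm in D/E-A, KO and WT Zmynd8, against 6.21 to 8.83 rpm in the p65 KO set. The 3 Zmynd8 libraries thus held transcripts that the other libraries labelled Raw264.7 lacked or nearly lacked, which goes against a shared label of 1 macrophage line. They are called by their genotype below, and levels are compared within this set.

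The 2 libraries were close for most genes. The median log2 ratio of D/E-A over KO was 0.02, and the middle 50% of genes lay between −0.25 and 0.28. At least 2-fold higher in D/E-A were 142 genes, which is 1.19% of those compared, and at least 2-fold lower were 182 genes, or 1.52%, in all 2.71%. At a fold of 1.2, taken alone and without the p-value and false discovery limits that the study set beside it, 26.7% were higher and 24.0% lower, in all 50.7%. The larger number of lower genes was clearer on the deposited values, which are scaled separately in each table: 88 genes were then higher and 298 lower, because that scaling moved the median of all genes by −0.13. Genes with few reads passed a fold of 2 more often, 9.01% of the fifth with the fewest reads (20.0 to 80.0 on average) against 0.586% of the fifth with the most. At a mean of at least 100 reads, the last gene inside the threshold on the lower side was Camp (log2 ratio −1.003), and Rmrp (−0.999) was just outside, as was Atat1 (0.99) on the higher side. The range in brackets after a ratio is its 95% interval from the exact method of Clopper and Pearson, which covers counting error only.

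**Figure D1:**
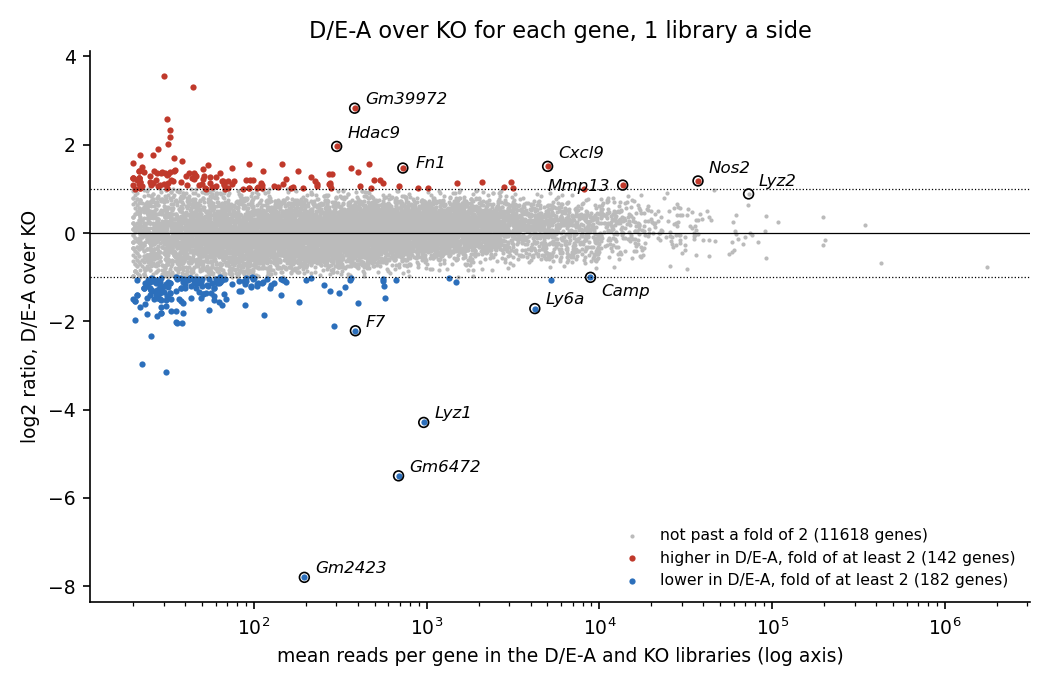
Log2 ratio of D/E-A over KO (vertical axis) against the mean reads of the 2 libraries (horizontal axis, log scale), 1 point per gene, with dotted lines at a fold of 2. The 142 red and 182 blue genes are past a fold of 2, mostly at low reads, while Nos2 and Cxcl9 stand above and Lyz1, Gm6472 and Gm2423 far below the band of all genes.

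Among the genes of arginine use, Nos2 stood out. Nos2, the inducible nitric oxide synthase that makes nitric oxide from arginine in activated macrophages, had 49114 reads in D/E-A, 25371 in KO and 9199 in WT Zmynd8. These were 2739, 1209 and 501 rpm, so D/E-A was the highest of the 3 libraries and WT Zmynd8 the lowest. The log2 ratio of D/E-A over KO was 1.18 (1.16 to 1.202), 2.27-fold, and in the p65 KO set Nos2 lay between 218 and 583 rpm. Slc7a2, a transporter that brings arginine into the cell, had 17663 reads in D/E-A, 11554 in KO and 7795 in WT Zmynd8 and the same order of levels, with a ratio of 0.84 (0.81 to 0.87). Acod1, which makes itaconate, had 97034, 86267 and 58349 reads and a ratio of 0.40 (0.38 to 0.41). Ass1, Gch1 and the arginases lay nearer to 0. Ass1, which recycles citrulline to arginine, was at 0.03 (−0.03 to 0.09), and Gch1, which starts the synthesis of a Nos2 cofactor, at −0.03 (−0.10 to 0.04). Arg1 and Arg2, the arginases that compete for the same substrate, had ratios of 0.20 (−0.24 to 0.63) and −0.01 (−0.19 to 0.16). Of the 10 genes of the list 1 was at least 2-fold higher, beside 1.19% of all genes, and 5 lay on each side of 0. The median was 0.01, beside 0.02 over all genes, and 0.25 centred on exon length.

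Chemokines were split, with members past a fold of 2 in both directions before centring on exon length and in the higher direction alone after it. Cxcl9, an interferon-γ-responsive chemokine that attracts T cells, had 7114 reads in D/E-A, 2921 in KO and 1339 in WT Zmynd8, or 397, 139 and 73.0 rpm. Its log2 ratio was 1.51 (1.45 to 1.57), the highest of the 21 chemokines compared. Cxcl10 and Cxcl11, which bind the same receptor, differed little, at 0.00 (−0.02 to 0.01), with 3840 and 3846 rpm, and 0.03 (−0.04 to 0.10). Cxcl1, a chemokine that attracts neutrophils, was the lowest, with 139 reads in D/E-A, 371 in KO and 536 in WT Zmynd8 and a ratio of −1.19 (−1.48 to −0.90). The related Cxcl2 and Cxcl3 were lower too, at −0.50 (−0.58 to −0.43) and −0.79 (−0.996 to −0.59), without passing a fold of 2. Pf4, the platelet factor 4 chemokine, had 3061, 7506 and 7438 reads in D/E-A, KO and WT Zmynd8 and a ratio of −1.07 (−1.13 to −1.01). In all, 1 chemokine was at least 2-fold higher and 2 were at least 2-fold lower, beside 1.19% and 1.52% of all genes. Centred within bins of exon length, Cxcl1 came to −0.82 and Pf4 to −0.58, so that neither was past a fold of 2, and Ccl8, a monocyte-attracting chemokine at 0.72 before centring, came to 1.203. Of the 21, 5 lay above 0 and 16 below, beside 52.3% and 47.7% of all genes, with a median of −0.11, which became 0.06 when centred in this way.

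The promoters of Cxcl9 and Cxcl1 are shown because these 2 chemokines lay furthest apart, each from 250 bases before the start site to 50 bases after it, 5′ to 3′ on the coding strand, with matches to the κB-like motif GGGNNNNNCC in capitals. They come from RefSeq on GRCm38.p6, Cxcl9 from the reverse strand at chr5:92328030-92328329 and Cxcl1 from the forward strand at chr5:90890995-90891294.
Cxcl9: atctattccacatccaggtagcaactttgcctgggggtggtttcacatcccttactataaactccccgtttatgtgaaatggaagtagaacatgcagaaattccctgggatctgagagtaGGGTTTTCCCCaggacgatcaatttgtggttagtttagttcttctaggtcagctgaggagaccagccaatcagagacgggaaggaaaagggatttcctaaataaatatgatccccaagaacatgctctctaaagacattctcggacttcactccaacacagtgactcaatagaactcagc
Cxcl1: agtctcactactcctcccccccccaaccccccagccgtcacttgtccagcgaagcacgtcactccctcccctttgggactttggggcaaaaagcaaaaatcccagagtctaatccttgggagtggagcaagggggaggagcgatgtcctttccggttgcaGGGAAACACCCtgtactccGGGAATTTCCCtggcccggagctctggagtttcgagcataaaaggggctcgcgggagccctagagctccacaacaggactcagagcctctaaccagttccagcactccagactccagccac
Cxcl9 held 2 overlapping matches in 1 run and Cxcl1 held 4 in 2 runs, counted on both strands. The motif was found in 16686 of 32851 promoters of this length, 50.8%. The bases TATAAA, counted anywhere in the window on both strands, were found 1 time in Cxcl9 and in 13.6% of all promoters. In Cxcl9 they lie in the upstream part of the window, far from the start site, so they are not placed as a TATA box.

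**Figure D2:**
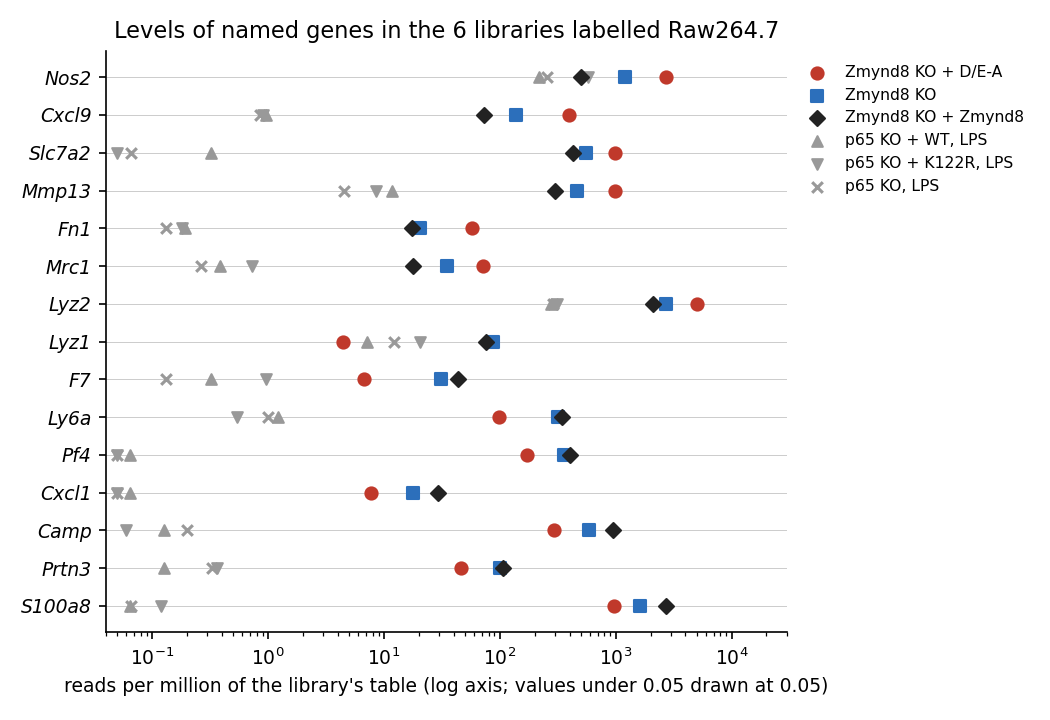
Level in rpm (horizontal axis, log scale) of 15 named genes in the 6 libraries labelled Raw264.7, 1 point per library, with values under 0.05 drawn at 0.05. D/E-A (red circles) is the highest of the 6 for Nos2, Cxcl9, Mmp13 and Lyz2 and lies below both KO and WT Zmynd8 for Ly6a, Pf4, Camp and S100a8, and the p65 KO set (grey) is far lower for most of these genes.

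A list of 8 inflammatory genes lay on both sides of 0. It holds Ccl2, Ccl5, Il1b, Il1a and Cxcl10, which the study names at super-enhancers, and Il27, Ccl7 and Ccl22, for which it lists enhancer primers. Il1a, an alarm cytokine, had 4078 reads in D/E-A, 3133 in KO and 2503 in WT Zmynd8 and a ratio of 0.61 (0.54 to 0.68). Ccl2, which recruits monocytes, had 3260, 3103 and 1503 reads and a ratio of 0.30 (0.23 to 0.37). Il1b had 21677, 27055 and 24943 reads and a ratio of −0.09 (−0.12 to −0.07), and Ccl5 had 62473, 77778 and 80601 reads and −0.09 (−0.10 to −0.07). Il27 stood at 0.14, Ccl7 at −0.01 and Ccl22 at −0.25. None of the 8 was past a fold of 2, 3 were above 0, and the median was −0.01. Their exons are short in total, with a median exon length of 1151 bases (all genes: 3535), and centred on exon length the median was 0.43.

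Other cytokines differed by less than a fold of 2, apart from 1. Ifnb1, interferon-β, had 116 reads in D/E-A, 283 in KO and 439 in WT Zmynd8 and a ratio of −1.06 (−1.38 to −0.74), and was thus lowest in D/E-A. Centred on exon length it stood at −0.57. Il6 was at 0.13 (0.04 to 0.21), Tnf at −0.17 (−0.22 to −0.12), Il12b at −0.27 (−0.37 to −0.17) and Il10 at −0.13 (−0.21 to −0.04). The median of the 18 cytokines was −0.05, with 7 above 0, and 0.10 centred on exon length.

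Interferon-stimulated genes lay somewhat above the middle of all genes, without 1 past a fold of 2. Of 42 genes, 30 were above 0, 71.4%, beside 52.3% of all genes, with a median of 0.25, and 0.27 centred on exon length. Iigp1, a GTPase against intracellular parasites, had 14131 reads in D/E-A and 10196 in KO (0.70, 0.66 to 0.73). Ifit2, which binds viral RNA, had 82197 and 62396 reads (0.62, 0.61 to 0.64). Cd274, the checkpoint ligand PD-L1, had 19093 and 14455 reads (0.63, 0.60 to 0.66). Bst2, a tether of budding virus, was the lowest at −0.56 (−0.60 to −0.53), and Isg15, the ubiquitin-like modifier, stood at −0.25 (−0.28 to −0.23). So members of this response lay on both sides, from −0.56 to 0.70.

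Lists of signalling genes upstream had medians near 0. Of 25 genes of the Toll-like receptor pathway 20 were above 0, with a median of 0.10 and none past a fold of 2. The endosomal receptors Tlr8, Tlr9 and Tlr7 were at 0.68, 0.61 and 0.45, and Tlr2, a receptor for bacterial lipoproteins, was lowest at −0.25. Among 28 NF-κB subunits and feedback genes 18 were above 0, with a median of 0.10. Rel, the c-Rel subunit, stood at 0.79 (0.66 to 0.91), Tnfaip3, the feedback inhibitor A20, at 0.49 (0.46 to 0.52) and Nfkbia, which encodes the inhibitor IκBα, at −0.33 (−0.35 to −0.30). On the deposited values both medians were −0.03 and that of all genes −0.11.

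Neutrophil granule genes were lower in D/E-A than in KO throughout. Camp, the antimicrobial peptide cathelicidin, had 5310 reads in D/E-A, 12459 in KO and 17477 in WT Zmynd8, or 296, 594 and 953 rpm, against 1 to 3 reads in each library of the p65 KO set. Its log2 ratio was −1.003 (−1.05 to −0.96), at the edge of the threshold, and centred on exon length it was −0.52. Scaled by the totals of whole tables, Camp was no longer past a fold of 2, and the list genes that were lower numbered 7 instead of 8. S100a8 and S100a9, the subunits of calprotectin, had 17370 against 34121 reads (−0.75, −0.77 to −0.72) and 20934 against 43294 reads (−0.82, −0.84 to −0.80). Prtn3, a serine protease of primary granules, was the lowest of the list, with 834, 2111 and 1955 reads in D/E-A, KO and WT Zmynd8 and a ratio of −1.11 (−1.23 to −0.996). Ctsg (cathepsin G) at −1.03 (−1.23 to −0.85) and Ly6g, a neutrophil surface marker, at −1.09 (−1.60 to −0.62) were also past a fold of 2. Mmp9 was the closest to 0, at −0.08 (−0.16 to 0.00). All 15 of 15 measured members lay below 0, beside 47.7% of all genes, and 4 were past a fold of 2, beside 1.52% of all genes, with a median of −0.66. After centring on exon length no member was past a fold of 2 and the median was −0.29. In bulk RNA, fewer cells with these transcripts and less RNA per cell cannot be told apart.

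Macrophage markers tended the other way. Lyz2, lysozyme of myeloid cells, had 89505 reads in D/E-A, 56670 in KO and 38723 in WT Zmynd8 and a ratio of 0.89 (0.87 to 0.90). Csf1r, the receptor that macrophages need to survive, had 13077, 9112 and 5553 reads and a ratio of 0.75 (0.71 to 0.79), and Adgre1, which encodes F4/80, had 15882, 13699 and 6185 reads and 0.44 (0.41 to 0.47). Spi1, the transcription factor PU.1, was at −0.15 (−0.18 to −0.12) and Cd68 at −0.02 (−0.07 to 0.03). Of 11 markers compared, 9 were above 0, with a median of 0.25, and 0.35 centred on exon length, where Lyz2 came to 1.25 and so passed a fold of 2. The summed level of the list was 10382 rpm in D/E-A, 7394 in KO and 5879 in WT Zmynd8, and it moved against that of the neutrophil list over the same 3 libraries. Lyz2 alone, scaled over the joined genes, stood at 4992, 2700 and 2111 rpm in these libraries. Most of the difference in the sum between D/E-A and KO was thus that of 1 gene. The part of these cell type markers in the other differences was not tested.

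Matrix and uptake genes were among the list members past a fold of 2. By list, 2 of 16 IL-4-type genes and 2 of 22 scavenger and pattern receptors were at least 2-fold higher, with Mrc1 in both. So were 1 of 11 metalloproteinases and inhibitors and 1 of 25 sterol and fatty acid genes, beside 1.19% of all genes. Mmp13, a collagenase, had 17596 reads in D/E-A, 9699 in KO and 5483 in WT Zmynd8 and a ratio of 1.09 (1.05 to 1.12). Fn1, fibronectin, had 1025, 432 and 323 reads and a ratio of 1.47 (1.31 to 1.64). The endocytic receptors Mrc1, the mannose receptor, and Stab1, stabilin-1, were just past the threshold, with 1288 against 742 reads (1.02, 0.89 to 1.16) and 4019 against 2307 reads (1.03, 0.95 to 1.10). Under TMM scaling Mrc1 came to 0.99 and Stab1 to 1.00, both just under a fold of 2, and centred on exon length to 0.83 and 0.75. On the deposited values Mmp13 came to 0.95 and Mrc1 and Stab1 to 0.89, also under it. Timp1, an inhibitor of metalloproteinases, had 1189 reads in D/E-A, 2503 in KO and 4610 in WT Zmynd8 and a ratio of −0.85 (−0.95 to −0.75). Mmp13 and Fn1 were lower in WT Zmynd8 than in KO, and Timp1 was higher there. Elovl6, a fatty acid elongase, was past a fold of 2 on few reads, 75 in D/E-A and 36 in KO (1.28, 0.69 to 1.90). The lists of 16 IL-4-type genes, 22 scavenger and pattern receptors, 11 metalloproteinases and inhibitors and 25 sterol and fatty acid genes had medians between 0.05 and 0.11, and between −0.08 and −0.03 on the deposited values, where that of all genes was −0.11.

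Across all 32 lists, 485 of 506 genes were joined, and 7 were at least 2-fold higher (Cxcl9, Nos2, Fn1, Mrc1, Stab1, Elovl6 and Mmp13) and 8 at least 2-fold lower (Camp, Ctsg, Ly6g, Prtn3, Prss34, Ifnb1, Pf4 and Cxcl1). These shares are near those of all genes, 1.19% and 1.52%. Centred on exon length, 5 of the 7 higher genes and 0 of the 8 lower ones stayed past a fold of 2, while 4 others became higher (Ccl8, Lyz2, Fos and Batf3) and 1 lower (Zbtb46). MHC class II genes were lower in 10 of 11, with a median of −0.35, for example H2-Ab1 at −0.46 (−0.53 to −0.40) and the invariant chain Cd74 at −0.35 (−0.39 to −0.31), but the median was −0.10 when centred on exon length. The class I list had a median of −0.13, and its transactivator Nlrc5, a long gene, stood at 0.74 (0.70 to 0.79). B cell markers were above 0 in 6 of 6, with a median of 0.56 with and without centring, for example Pax5 at 0.80 (0.63 to 0.98) and Ms4a1 at 0.61 (0.42 to 0.80). Cell cycle genes were below 0 in 29 of 37, with a median of −0.16, and −0.17 centred, from Tyms at −0.67 (−1.02 to −0.34) to Mki67 at 0.26 (0.17 to 0.34). Of 31 ZMYND8 partners and chromatin regulators 24 were above 0, with a median of 0.25. They include Chd3, a NuRD helicase, at 0.87 (0.70 to 1.04), Ep300, a histone acetyltransferase, at 0.76 (0.68 to 0.84) and Kdm1a, the demethylase LSD1, at 0.15 (0.03 to 0.28). Their genes are long, with a median of 6806 bases of exon, and the centred median was 0.05.

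Further lists had no member past a fold of 2 before centring on exon length, and only some of them held single genes near it. Among transcription factors of macrophages, the immediate early factors Egr1 and Fos stood at 0.95 (0.74 to 1.15) and 0.93 (0.72 to 1.15), and Cebpa, a factor of granulocyte precursors, at −0.88 (−1.13 to −0.63), with 16 of 29 above 0. In the list of glycolysis and HIF-1 targets, with 11 of 28 above 0 and a median of −0.04, Pfkfb3, an activator of glycolysis, had 21192 reads in D/E-A and 13718 in KO (0.85, 0.82 to 0.89), and Ldha, lactate dehydrogenase, was at −0.12 (−0.16 to −0.07). Abca1, a cholesterol exporter, was at 0.96 (0.84 to 1.09), and Apoe, the lipid carrier, at −0.28 (−0.29 to −0.27), in a list of 12 with 7 above 0. NRF2 targets were below 0 in 13 of 17, with a median of −0.15, for example Ftl1, ferritin light chain, at −0.57 (−0.59 to −0.56), and −0.04 centred on exon length. Ccr7, which guides dendritic cells to lymph nodes, was at −0.59 (−0.69 to −0.49), in a list of 13 chemokine receptors with 5 above 0. Markers of dendritic cells (3 of 7 above 0), osteoclasts (0 of 4) and progenitors (0 of 4) were measured on few genes. Lysosome genes lay evenly, 12 of 25 above 0, and so did housekeeping genes, 7 of 15, from Rpl13a, a ribosomal protein, at −0.55 (−0.59 to −0.51) to Polr2a, the large subunit of RNA polymerase II, at 0.83 (0.71 to 0.94).

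**Figure D3:**
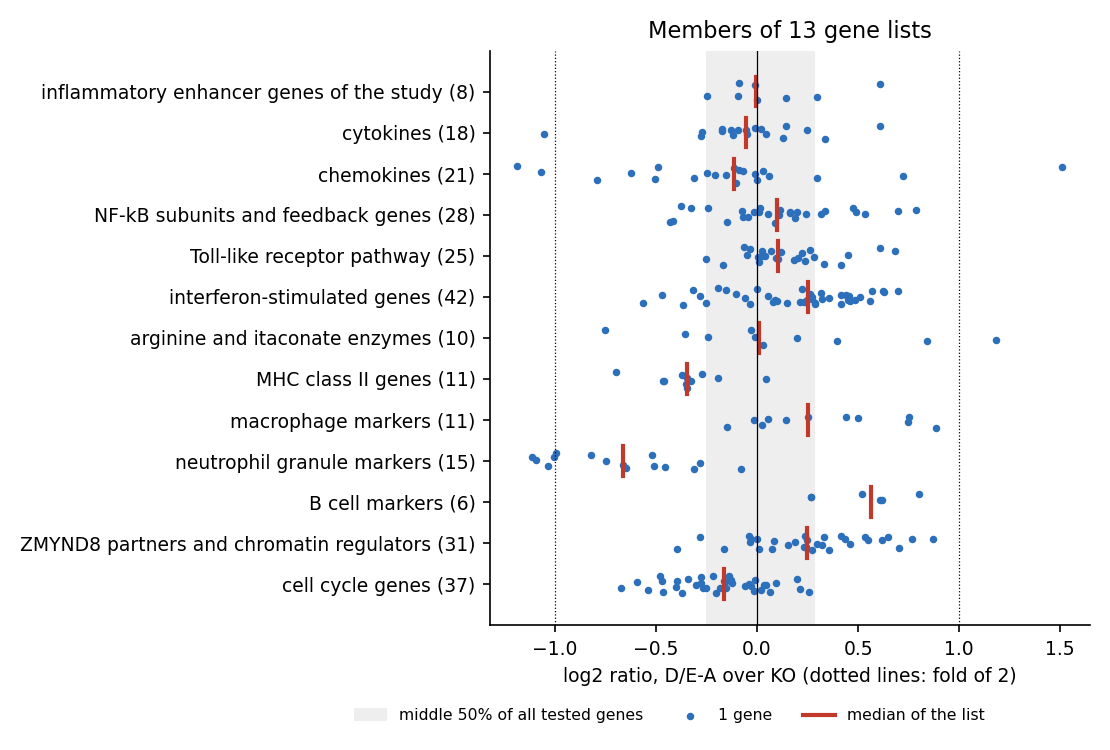
Log2 ratio of D/E-A over KO (horizontal axis) for each member of 13 gene lists, 1 point per gene, with the number of genes past the read filter in brackets, the list median in red and the middle 50% of all genes (−0.25 to 0.28) in grey. All 15 neutrophil granule genes lie left of 0 and all 6 B cell markers right of it, and few members of any list reach a fold of 2 (dotted lines).

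Across all genes with a known exon length (10936, 91.6% of those compared), the ratio was higher the greater that length. Exon length is the number of bases in any RefSeq exon of a gene, over all its transcripts together, and not the length of a single transcript. From the fifth with the shortest exons (42.0 to 1853 bases) to the fifth with the longest (6490 to 83437 bases), the median log2 ratios were −0.32, −0.08, 0.05, 0.17 and 0.29. In the shortest group 12 genes were at least 2-fold higher and 92 at least 2-fold lower, and in the longest 47 were higher and 7 lower. WT Zmynd8 over KO had medians of 0.19 in the shortest group and −0.11 in the longest. Of the 142 higher genes 113 had a known exon length, and 68 of these stayed past a fold of 2 after centring on it. Of the 182 lower genes 152 had one, and 80 of these stayed. The part of exon length in any single difference was not tested.

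**Figure D4:**
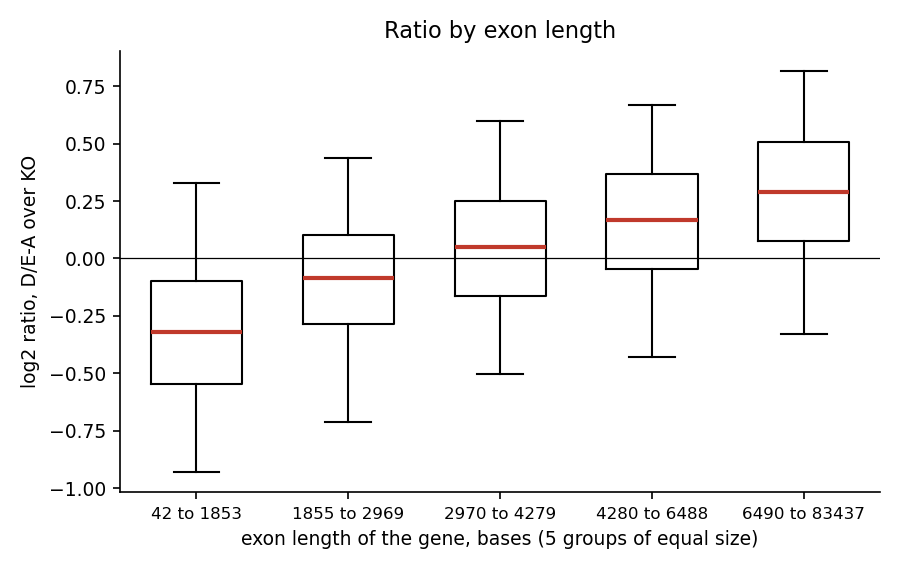
Log2 ratio of D/E-A over KO (vertical axis) in 5 groups of equal size by exon length in bases (horizontal axis). Red lines are medians, boxes the middle 50% of genes and whiskers the 5% to 95% range. The median climbs from −0.32 in the shortest to 0.29 in the longest group.

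Among well-covered genes, the largest ratios lay below 0. Lyz1, a lysozyme gene next to Lyz2 that is mostly used in intestinal Paneth cells, had 80 reads in D/E-A, 1844 in KO and 1389 in WT Zmynd8, or 4.46, 87.9 and 75.7 rpm. The log2 ratio was −4.29 (−4.64 to −3.98) and −3.92 centred on exon length, while Lyz2 differed in the other direction. In BMDMs, which are macrophages grown from mouse bone marrow (libraries of pooled animals), Lyz1 had 106 counts without and 99 with LPS in WT and 1400 and 1032 in Zmynd8 cKO, where Cre is driven by the Lyz2 locus. Reads of the 2 genes may be split by the authors' counting, so both values are uncertain. The windows around their start sites are shown because the genes are near-identical there, from 100 bases before to 50 bases after the start, with the differing bases in capitals, from RefSeq on the reverse strand of GRCm38.p6 at chr10:117292819-117292968 (Lyz1) and chr10:117282223-117282372 (Lyz2).
Lyz1: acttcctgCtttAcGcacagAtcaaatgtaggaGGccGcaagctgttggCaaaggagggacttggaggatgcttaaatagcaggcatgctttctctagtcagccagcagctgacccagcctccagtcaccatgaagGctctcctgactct
Lyz2: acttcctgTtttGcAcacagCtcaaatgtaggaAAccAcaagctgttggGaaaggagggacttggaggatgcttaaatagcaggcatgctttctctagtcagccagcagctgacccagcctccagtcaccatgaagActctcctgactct
They shared 141 of 150 bases, 94%, and 49 of the 50 transcribed bases.

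Pseudogenes aside, the next lowest after Lyz1 was F7, coagulation factor VII, with 120 reads in D/E-A, 654 in KO and 794 in WT Zmynd8 and a ratio of −2.21 (−2.51 to −1.94). C130026I21Rik (−2.12) and Adi1, an enzyme of methionine salvage (−1.87), followed. Ly6a, the surface protein Sca-1, had 1750, 6711 and 6369 reads and a ratio of −1.71 (−1.79 to −1.64). For F7 and Ly6a D/E-A was apart and KO and WT Zmynd8 close to each other. Apoc2, an activator of lipoprotein lipase, had 270, 879 and 969 reads (−1.47, −1.68 to −1.28). Apoc2 overlaps the readthrough gene Apoc4-apoc2 (−1.58), so reads of the 2 cannot be told apart. G0s2, an inhibitor of fat breakdown, had 140 reads in D/E-A, 410 in KO and 407 in WT Zmynd8 and a ratio of −1.32 (−1.61 to −1.04). Prss34, a mast cell protease, had 179, 491 and 520 reads and a ratio of −1.23 (−1.48 to −0.98). LOC108168162 (−1.56), Gm5483 (−1.40) and Mrpl41, a mitochondrial ribosomal protein (−1.24), made up the lowest 15 with 3 genes annotated as pseudogenes, Erdr1 (−1.35), Gm2423 and Gm6472. Gm2423 had 1 read in D/E-A, 391 in KO and 382 in WT Zmynd8 (−7.80, −13.69 to −5.90), and Gm6472 had 25, 1351 and 1013 reads (−5.50, −6.16 to −4.96). Pseudogenes can share reads with their parent genes, so these 3 values are uncertain. Centred on exon length, Apoc2 came to −0.99, Erdr1 to −0.87, Prss34 to −0.86 and G0s2 to −0.84, and F7 (−2.18) and Ly6a (−1.34) stayed past a fold of 2.

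At the other end, Gm39972, an unnamed gene model, had 658 reads in D/E-A, 108 in KO and 85 in WT Zmynd8 (2.83, 2.54 to 3.14). Hdac9, a class IIa histone deacetylase, had 464, 139 and 121 reads and a ratio of 1.96 (1.69 to 2.25), 1.63 centred on exon length. In both genes KO and WT Zmynd8 were close and D/E-A stood apart. Prokr1, a prokineticin receptor, had 661, 262 and 96 reads (1.56, 1.35 to 1.77), and Tnc, the matrix protein tenascin-C, had 209, 83 and 35 reads (1.55, 1.19 to 1.94). Those 2 had the order of Nos2, with D/E-A highest and WT Zmynd8 lowest. Rag1, which cuts antigen receptor genes in lymphocyte precursors, had 516, 218 and 123 reads (1.47, 1.24 to 1.71), and Ikzf3, the lymphoid factor Aiolos, had 370, 172 and 204 reads (1.33, 1.07 to 1.60). Lox (lysyl oxidase), Lima1 (an actin-binding protein), Itpr3 (a calcium channel), Lrrc8b, Uba6 (a ubiquitin-activating enzyme), Spaca6 and Gm4759, annotated as a pseudogene and so uncertain, completed the highest 15, at 1.21 to 1.41. Itpr3 (0.90) and Lrrc8b (0.99) came under a fold of 2 when centred on exon length.

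Genes that respond to LPS were chosen in WT BMDMs, which this comparison did not use, as those at least 4-fold higher (447 compared) or lower (1176 compared) with LPS for a mean of at least 100 counts. The induced genes summed to 174907 rpm in D/E-A and 154733 rpm in KO, so the KO library, whose label gives no treatment, held them at a similar total. Of the 447, 6 were at least 2-fold higher in D/E-A, among them Cxcl9, Nos2, the cytoskeletal linker Dst (4054 and 2115 reads), Lrrc4 and Zdhhc2. Ly6a and C130026I21Rik were at least 2-fold lower. These shares, 1.34% and 0.447%, stand beside 1.19% and 1.52% of all genes. In all, 285 of the 447 were above 0, 63.8%, beside 52.3% of all genes, with a median of 0.12, and 0.15 centred on exon length. On the deposited values the median was −0.01 and that of all genes −0.11. Among the reduced genes 14 were at least 2-fold higher and 12 lower, 1.19% and 1.02%, near the shares of all genes. Above 0 were 561, 47.7%, beside 52.3% of all genes. The median was −0.02, beside 0.02 over all genes. It was −0.07 centred on exon length, and −0.06 when the genes were chosen at 8-fold.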

How the data were processed

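RNA-seq libraries of Zmynd8 KO + D/E-A and Zmynd8 KO cells, both labelled Raw264.7, were compared, 1 library each. The authors deposited 1 normalised signal value per gene and library. Each signal was a read count times a factor particular to the library, for 100% of values above 0 in D/E-A and all but 1 (Zmynd8) in KO, within 0.1 read, so reads were recovered by division. The authors also deposited estimated counts per gene for BMDMs, from TopHat alignments to mm10 according to the Methods, which were rounded to whole counts and used to choose LPS-responsive genes. For the Raw264.7 values an aligner and counter are not given in the sources used here. Columns of the authors' own comparisons (fold changes and p-values) and 2 unlabelled columns of values were not used. The submitters' processing notes name CASAVA 1.4, Bowtie 0.12.2, mm8 and mm10 without a role. Gene positions overlapped RefSeq genes of GRCm38 (mm10) on the same chromosome for 99.85% of 11474 shared symbols. The design had counts recovered from the signal in view, and a count test was not run because it needs replicates.

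Reads were divided by the library total over the joined genes, with 0.5 read added before log2. Summed rpm of marker lists over the libraries, and rpm in the p65 KO set, used the total of each whole table. Genes with a mean of at least 20 reads were compared, and a fold of 2 was the call rule. Members, lists and rules were chosen with earlier results of these data known. Named genes are Nos2 and Camp, the 15 highest and 15 lowest ratios at a mean of at least 100 reads, list members and genes that the study names. For exon length, the median ratio of each of 20 bins was set to 0. Alternatives were other scalings (median of ratios, TMM, whole tables, deposited values), 1 rpm added, other filters and folds and, chosen after seeing the data, totals without ribosomal RNA and the exon length bins. Gene names had been turned into dates for 18 genes, which kept those names. The values of 1 gene are not reported here. Scripts were tested on simulated data. Tools were Python 3.11.15, pandas 2.3.3, NumPy 2.4.6, SciPy 1.17.1, matplotlib 3.10.9, R 4.3.3 and edgeR 4.0.16 (TMM factors).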

Additional observations from a re-analysis of the deposited data

How the results depend on the processing

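No paired analysis was possible because each side was 1 library, which also left no replicate to leave out and no count test on the recovered reads. Nos2, Camp, the 15 genes at each end of the ranking and the list members past a fold of 2 kept their direction under the alternatives run, while other list members and list medians near 0 changed sign when centred on exon length. The deposited values lower all genes alike, their median to −0.11, so signs near 0 change there by construction. Scaling by median of ratios, TMM or whole tables kept the counts of genes past a fold of 2 within 1.5 times. Of 142 genes higher and 182 lower, the numbers were 88 and 298 on the deposited values, 47 and 49 with 1 rpm added, 225 and 318 with no filter, 48 and 41 at a mean of at least 100 reads, 3189 and 2863 at a fold of 1.2, and 7 and 11 at a fold of 4. Among the 10936 genes with a known exon length lower genes numbered 152, and 107 when centred on it, an alternative chosen after seeing the data. Of the list genes, 7 higher became 4 on the deposited values and 11 with no filter, 8 lower became 5 with 1 rpm added, and none of the 8 stayed past it centred on exon length, where 1 other gene, Zbtb46, was lower, and at a fold of 1.2 they were 119 and 110, at a fold of 4, 0 and 0. LPS-induced genes, 6 higher and 2 lower, became 3 higher on the deposited values, 163 and 71 at a fold of 1.2, and 0 and 1 at a fold of 4. LPS-reduced genes, 14 higher and 12 lower, became 6 and 27 on the deposited values, 7 and 5 with 1 rpm added, 7 and 2 at a mean of at least 100 reads, 280 and 299 at a fold of 1.2, 0 and 0 at a fold of 4, and 6 and 3 when chosen at 8-fold; higher genes were 9 on totals without ribosomal RNA, also chosen after seeing the data, and 8 centred on exon length. A higher fold or filter gives fewer genes by construction, and the other causes were not tested. Depth limits the genes with few reads, where 1 library a side cannot show whether a fold of 2 would recur.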

Other observations

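Genes of the T cell receptor complex had fewer reads in KO than in D/E-A and WT Zmynd8, all under the read filter. Since the D/E-A table holds only genes with at least 21 reads in WT Zmynd8, their level in that library was needed for them to be listed. Cd3e, a signalling chain of the receptor, had 37 reads in D/E-A, 2 in KO and 38 in WT Zmynd8. Cd3d had 21, 3 and 23 reads, Cd3g had 11, 0 and 28, and Trac, the constant region of the α chain, had 18, 2 and 24. The constant regions of the β chain, chosen after their values were seen, had 13, 0 and 23 reads (Trbc1) and 26, 6 and 33 reads (Trbc2). The co-receptors did not follow: Cd4 had 124, 208 and 134 reads and Cd8a had 156, 170 and 156. In the p65 KO set, Cd3d and Trac had at most 1 read in each library. The counts of these receptor genes are low, and the cause of their difference between the libraries was not tested.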
